A study of Mus musculus with 6 samples.

Results

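MYC and the MAX network are a small family of transcription factor genes, and 10 of its members were looked up by gene symbol in a deposited table of read counts with 31456 rows. All 10 members (MYC, MAX, MXD1, MXD3, MXD4, MXI1, MNT, MGA, MLX and MLXIP) had 1 row each and all passed the filter on low counts. The cells were HCT116, a long-established line from a human colorectal carcinoma. One group of 3 libraries was titled parental and the other group of 3 was titled resistant, where the study's design text names oxaliplatin, a platinum drug used against colorectal cancer. The labels give no further genotype, dose or time, and leave unsaid how resistance was obtained, whether the resistant cells are 1 clone, and whether replicate libraries stem from separate cultures. The p-values therefore measure the spread between these libraries, which may be technical. The organism field of the labels names mouse, but the table carries human identifiers and symbols.

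MYC is a basic helix-loop-helix leucine zipper protein that binds DNA only as a pair with MAX. MAX also pairs with MXD1, MXD3, MXD4, MXI1 and MNT, which recruit the SIN3 corepressor to the same E-box sites and oppose MYC, and with MGA, the scaffold of a variant Polycomb complex. A parallel arm is built on MLX, which pairs with MLXIP (MondoA), MLXIPL (ChREBP), MNT and some MXD proteins and links sugar phosphate levels to transcription. In colorectal epithelium MYC is a classical target of beta-catenin and the TCF factors, and it drives ribosome production and growth.

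The libraries held 20246878 to 32138423 counts, so that 3 counts, taken as the floor of detection, corresponded to 0.0933 to 0.148 CPM, the usual unit of counts scaled to library size. The epithelial markers EPCAM, CDH1, KRT8, KRT18 and KRT19 summed to 2753 to 3146 CPM in parental and 2565 to 2712 CPM in resistant libraries. Fibroblast markers (COL1A2, COL3A1, DCN, LUM) summed to at most 12 counts in any library, and the defining leukocyte genes PTPRC and CD3E had at most 2 counts. The remaining leukocyte marker on the list, the lysosomal gene CD68, was detected at 12.6 ± 0.438 CPM in parental and 16.4 ± 1.33 CPM in resistant libraries (SD, n = 3; edgeR adjusted p = 0.0013). Parental replicate 2 stood apart from the other parental libraries, with a chi-square per gene of 11.3 and 10.8 against them, where sampling noise alone gives a value near 1 and parental replicates 1 and 3 gave 1.99 against each other.

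MYC mRNA fell in the resistant cells while the genes of its MXD and MNT opponents rose. Of the 10 members 6 rose (MAX, MXD1, MXD3, MXD4, MXI1 and MNT), 3 fell (MYC, MLX and MLXIP) and 1, MGA, did not pass the threshold, set at 0.05 for the adjusted p of edgeR's quasi-likelihood test. The change was widespread in these cells, since 53.8% of the 16605 tested genes passed the same threshold, 27.3% higher and 26.5% lower. The groups did not overlap in CPM for any of the 10 members, which was also true of 61.2% of tested genes. With library sizes alone in place of TMM scaling 65.3% of the called genes were higher, against 50.8% with TMM, and 7 members rose and 2 fell. Mitochondrial mRNA took 4.79% to 5.07% of counts in parental and 6.33% to 6.95% in resistant libraries, and its part in the changes described here was not tested.

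**Figure D1:**
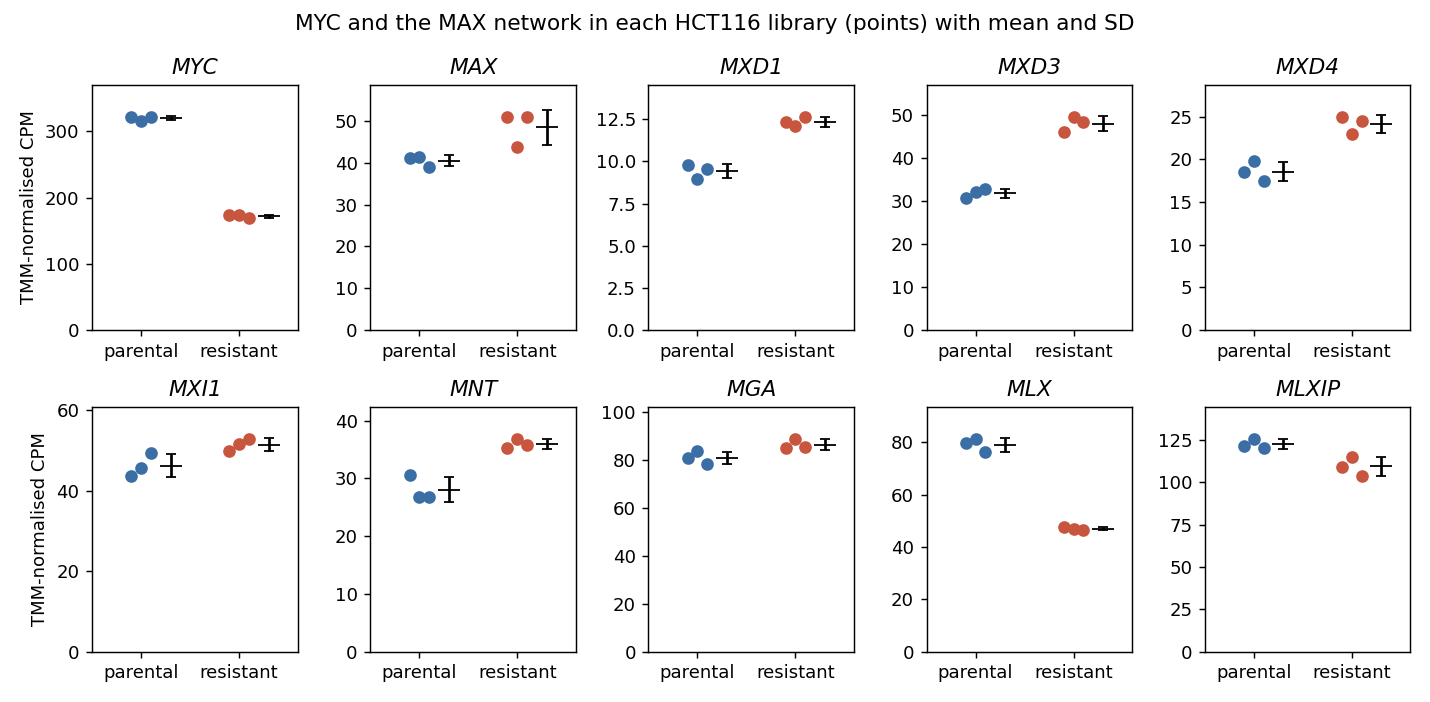
TMM-normalised CPM (vertical axis, from 0) of each network member in the 3 parental (blue) and 3 resistant (red) HCT116 libraries, with the mean and SD in black beside the points. MYC lies between 316 and 322 CPM in parental and between 169 and 173 CPM in resistant libraries, and no panel has overlapping groups.

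MYC (ENSG00000136997.18) had 322, 316 and 322 CPM in parental replicates 1, 2 and 3 and 173, 173 and 169 CPM in resistant replicates 1, 2 and 3. The resistant libraries all lay far below the parental ones, and the libraries of a group differed from each other by a few CPM. The mean was 320 ± 3.19 CPM in parental and 172 ± 2.33 CPM in the resistant cells (SD, n = 3), a 1.86-fold fall with a log2 fold change of -0.90 ± 0.04 (SE) and an edgeR adjusted p of 6.2e-09. A fall at least this large that also passed the threshold was seen in 3.29% of tested genes. In bulk RNA fewer expressing cells and less mRNA per cell cannot be told apart. Over all alternatives the MYC log2 fold change stayed between -0.91 and -0.79.

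MAX (ENSG00000125952.19), the obligate partner of MYC and of the opposing factors, had 41.3, 41.4 and 39.1 CPM in parental and 51.1, 43.7 and 51.0 CPM in resistant libraries. The resistant values were all higher, with resistant replicate 2 close to the parental level. The log2 fold change was 0.26 ± 0.07 (SE), a 1.19-fold rise, with an edgeR adjusted p of 0.0066. This rise depended on the deposited unit. In the second deposited table, whose values are taken as FPKM (fragments per kilobase of gene, scaled to depth), MAX had 54.3, 51.7 and 44.7 FPKM in parental and 49.6, 46.1 and 50.7 FPKM in resistant libraries. On that scale the groups overlapped and the log2 fold change was -0.04 (limma adjusted p = 0.74).

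The gene length that the 2 tables imply together, CPM on the raw library total divided by FPKM, moved with this result. For MAX it was 0.740, 0.766 and 0.849 kb in parental and 1.07, 0.976 and 1.04 kb in resistant libraries, a shift of 0.39 on the log2 scale. Only 1.39% of 11624 genes with a mean of at least 5 CPM shifted this far in either direction. MXD3 shifted by 0.35, from 1.41 ± 0.0693 kb to 1.80 ± 0.0923 kb (SD, n = 3), as far as 1.90% of genes. For the other 8 members the implied length overlapped between the groups, with shifts from -0.05 (MNT) to 0.14 (MXI1) against a median of 0.03 over all genes compared. Of all genes compared 30.2% had no overlap, so a separation of the groups in implied length was not rare. MAX and MXD3 both have several annotated transcript forms of different length, but transcript forms were not measured separately here, and their part in the shift was not tested.

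Among the opposing factors MXD3 (ENSG00000213347.10) changed most. This MXD gene, which unlike its relatives is known to be expressed in proliferating cells, had 30.7, 32.1 and 32.7 CPM in parental and 46.1, 49.6 and 48.4 CPM in resistant libraries. All resistant libraries stood well above all parental ones. The log2 fold change was 0.59 ± 0.05 (SE), a 1.51-fold rise, with an edgeR adjusted p of 3.2e-06, and 0.32 on the log2(FPKM + 1) scale (limma adjusted p = 0.011).

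MXD1 (ENSG00000059728.11), first described as a MAX partner that replaces MYC when cells differentiate, had 9.81, 8.97 and 9.52 CPM in parental and 12.3, 12.1 and 12.6 CPM in resistant libraries. The groups were separated by more than the spread of either. The rise was 1.31-fold, with a log2 fold change of 0.39 ± 0.08 (SE) and an edgeR adjusted p of 0.0011. On log2(FPKM + 0.1) the MXD1 call was lost (limma adjusted p = 0.055), within a range of 3.1e-04 to 0.10 over all its alternatives.

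MXD4 (ENSG00000123933.17), another repressor of the MXD family, had 18.5, 19.8 and 17.5 CPM in parental and 25.0, 23.0 and 24.5 CPM in resistant libraries, a 1.29-fold rise (edgeR adjusted p = 5.7e-04). MNT (ENSG00000070444.15), the most broadly expressed MYC antagonist and also a partner of MLX, had 30.6, 26.7 and 26.8 CPM in parental and 35.3, 36.9 and 35.7 CPM in resistant libraries, a 1.28-fold rise (edgeR adjusted p = 5.9e-04). For MXD4 and MNT the highest parental library lay below the lowest resistant one.

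MXI1 (ENSG00000119950.21), the remaining MXD protein, had 43.7, 45.6 and 49.3 CPM in parental and 49.8, 51.5 and 52.9 CPM in resistant libraries. Parental replicate 3 nearly reached resistant replicate 1. The rise was 1.12-fold (log2 fold change 0.16 ± 0.06 SE, edgeR adjusted p = 0.037), and the call did not hold in most settings. Without parental replicate 1 the edgeR adjusted p was 0.18, and without resistant replicates 1, 2 and 3 it was 0.057, 0.083 and 0.13, in a range up to 0.47 over all alternatives.

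MGA (ENSG00000174197.16), a very large protein that holds both a T-box and a MAX-binding domain, had 80.7, 83.5 and 78.5 CPM in parental and 84.8, 88.9 and 85.5 CPM in resistant libraries. The resistant values were slightly higher, with a log2 fold change of 0.09 ± 0.05 (SE) and an approximate unadjusted 95% interval from 0.0027 to 0.19. This interval rests on a normal multiplier and is narrower than the quasi-likelihood test allows, since the unadjusted edgeR p was 0.068. The edgeR adjusted p was 0.11. It was 0.031 without parental replicate 2 and 0.0043 with library sizes alone.

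In the MLX arm MLX and its partners MLXIPL and MLXIP moved down, MLXIP only slightly, while MNT, which also pairs with MLX, rose. MLX (ENSG00000108788.11) had 79.6, 81.4 and 76.1 CPM in parental and 47.7, 46.8 and 46.5 CPM in resistant libraries. The log2 fold change was -0.75 ± 0.05 (SE), a 1.68-fold fall, with an edgeR adjusted p of 1.4e-07, and the groups did not overlap. MLXIPL (ENSG00000009950.16), which encodes the carbohydrate response factor ChREBP and is a paralog of MLXIP, fell 1.67-fold, from 39.0 ± 1.96 CPM to 23.3 ± 1.25 CPM (SD, n = 3; edgeR adjusted p = 1.6e-06).

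MLXIP (ENSG00000175727.9), which encodes the glucose-sensing MLX partner MondoA, had 122, 126 and 120 CPM in parental and 109, 115 and 104 CPM in resistant libraries. The fall was small, 1.12-fold, with a log2 fold change of -0.16 ± 0.05 (SE) and an edgeR adjusted p of 0.015. The MLXIP call was lost without resistant replicate 1 (edgeR adjusted p = 0.055), without resistant replicate 3 (0.082), with library sizes alone (0.25) and on FPKM.

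Of the MYC paralogs, MYCL (ENSG00000116990.11) rose 1.24-fold from a low level, 9.02 ± 0.421 CPM, to 11.1 ± 0.683 CPM (SD, n = 3; edgeR adjusted p = 0.0094). With DESeq2 the MYCL adjusted p was 0.070. MYCN was not analysed here.

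**Figure D2:**
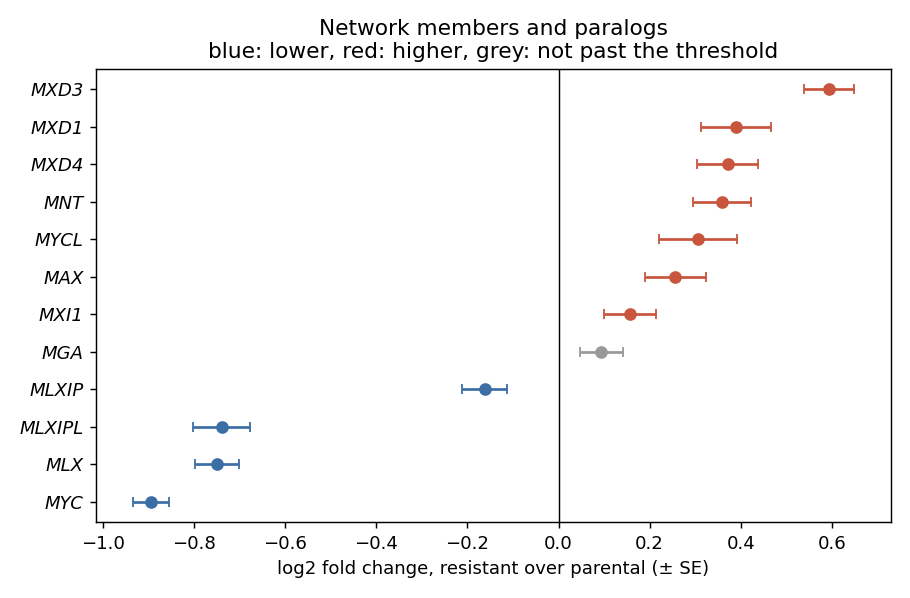
Log2 fold change (horizontal axis, resistant over parental, with SE bars, from edgeR) of the 10 network members and the paralogs MYCL and MLXIPL. MYC, MLX and MLXIPL lie between -0.90 and -0.74, and MXD3 is highest at 0.59.

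Levels of different genes were compared on the FPKM scale, which is per length. In the parental cells MYC led at 186 ± 0.954 FPKM, followed by MAX at 50.2 ± 4.98, MLX at 44.4 ± 1.48, MXI1 at 27.8 ± 2.39, MXD3 at 21.9 ± 1.43 and MLXIP at 17.3 ± 0.223 FPKM (SD, n = 3). MNT at 10.1 ± 0.811, MGA at 8.14 ± 0.394, MXD4 at 5.68 ± 0.439 and MXD1 at 1.88 ± 0.214 FPKM followed. Between neighbours in this order the ranges overlapped for MAX and MLX alone. In the resistant cells MYC was still highest at 108 ± 7.22 FPKM and MAX next at 48.8 ± 2.43 FPKM. MXI1 at 30.0 ± 1.58, MLX at 28.3 ± 1.39 and MXD3 at 27.6 ± 1.98 FPKM then formed a run of overlapping neighbours, so that MLX no longer stood apart from MXI1 and MXD3. The ranges of MLXIP and MNT, and those of MGA and MXD4, also overlapped in resistant libraries.

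The balance between MYC and its partners was read within each library as a ratio of counts, which does not depend on how libraries are scaled. Only the change of such a ratio between groups is interpreted here, because the level of a count ratio depends on gene length. With 3 against 3 libraries an exact permutation test cannot give a p below 0.10, so the ratios are described without a test. The log2 ratio of MYC to MAX was 2.96, 2.94 and 3.04 in parental and 1.76, 1.99 and 1.73 in resistant libraries, a mean difference of -1.15, or 2.22-fold. Every parental library thus had more MYC per MAX than every resistant library.

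Against the opposing factors the shift was larger or of like size. The mean log2 ratio of MYC to MXD3 differed by -1.49 (2.81-fold), to MXD1 by -1.28 (2.44-fold), to MXD4 by -1.27 (2.42-fold), to MNT by -1.26 (2.39-fold) and to MXI1 by -1.05 (2.07-fold). None of these ratios overlapped between the groups. Each ratio of MYC to another member carries the fall of MYC itself. Only 3.29% of tested genes passed the threshold with a fall at least as large as that of MYC. That is not the share of all genes whose ratio to MYC separates the groups, which was not computed. The ratio to MGA, which did not pass the threshold itself, also separated the groups. The separation is therefore not read as a trait of the opposing factors. Against MGA the difference was -0.99 and against MLXIP -0.73. The ratio of MYC to MLX changed least, by -0.15, with 2.02 ± 0.0605 in parental and 1.87 ± 0.0151 in resistant libraries (SD, n = 3), and on FPKM the MYC to MLX ratio overlapped between the groups.

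Per length, the 5 antagonists MXD1, MXD3, MXD4, MXI1 and MNT together had 63.6, 68.2 and 70.5 FPKM in parental and 78.5, 85.2 and 82.9 FPKM in resistant libraries. MYC mRNA stood at 2.93, 2.71 and 2.64 times this sum in parental and at 1.34, 1.36 and 1.23 times in resistant libraries. These are mRNA levels, and the proteins and their pairing were not measured.

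**Figure D3:**
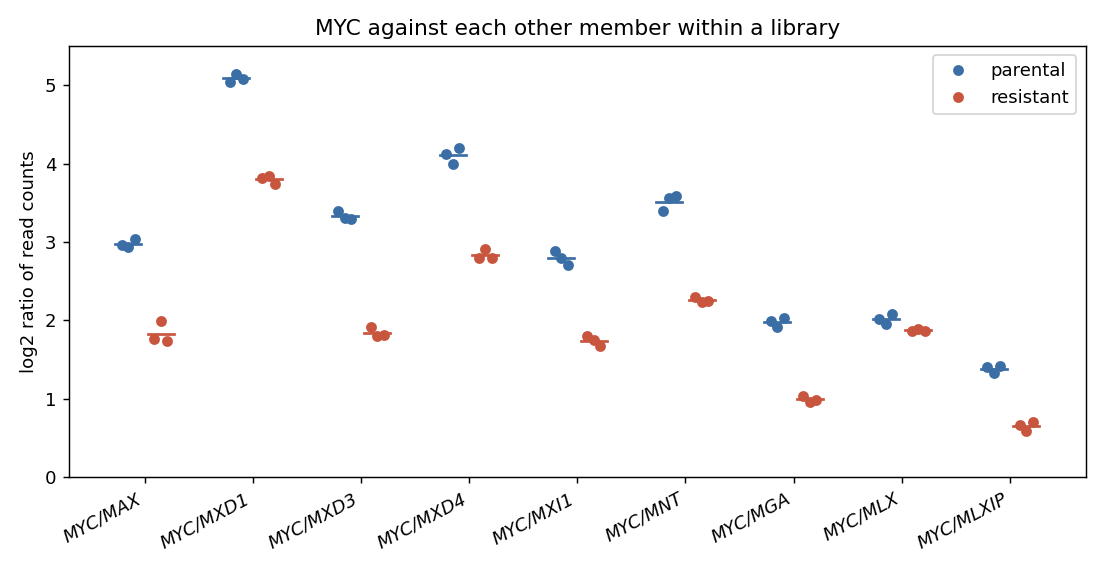
Log2 ratio of MYC read counts to those of each other member (vertical axis) within each parental (blue) and resistant (red) library, with group means as bars. The resistant points lie below the parental ones for all 9 members, by 1.49 for MXD3 and by 0.15 for MLX. Each ratio carries the fall of MYC itself.

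Genes that MYC is known to induce were lower in the resistant cells almost throughout. The list held 63 symbols, mostly nucleolar, ribosome assembly, nucleotide and chaperone genes, of which 62 had a row and all 62 were tested. Of these 59 fell, 0 rose and 3 did not pass (edgeR adjusted p, threshold 0.05; 0 were higher at an unadjusted p under 0.05), against 26.5% of all tested genes lower. With library sizes alone 55 fell and 1 rose, DESeq2 called 59 lower and 0 higher, and on log2(FPKM + 1) 52 fell and 0 rose. Over all 16605 tested genes 3146 were lower with library sizes alone and 2807 on log2(FPKM + 1). The list's median log2 fold change was -0.46, against 0.02 for all tested genes. The list was chosen with earlier results of these data known, and the share of MYC in these changes was not tested.

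NCL, which encodes the nucleolar protein nucleolin, had 1569, 1710 and 1592 CPM in parental and 930, 989 and 963 CPM in resistant libraries, a 1.69-fold fall. GNL3, the nucleostemin gene, had 249, 252 and 248 CPM in parental and 160, 159 and 154 CPM in resistant libraries, a 1.58-fold fall with an edgeR adjusted p of 9.6e-08. PPRC1, a coactivator of mitochondrial and growth genes, fell 1.83-fold, from 182 ± 10.9 CPM to 99.4 ± 2.71 CPM, and SLC29A2, a nucleoside transporter gene, fell 2.01-fold, from 50.8 ± 3.03 CPM to 25.3 ± 0.397 CPM (SD, n = 3). PLK1, a mitotic kinase gene that also follows the cell cycle, fell 2.17-fold, from 171 ± 6.91 CPM to 79.2 ± 3.81 CPM. For each of these genes all resistant libraries lay below all parental ones.

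The 3 targets that did not pass were HK2 and LDHA, the hexokinase and lactate dehydrogenase genes of glycolysis, and RABEPK. LDHA had 1169 ± 25.1 CPM in parental and 1170 ± 13.5 CPM in the resistant cells, with a log2 fold change of 0.0018 ± 0.04 (SE, edgeR adjusted p = 0.97). HK2 had a log2 fold change of 0.05 (edgeR adjusted p = 0.38) and RABEPK one of -0.16 (edgeR adjusted p = 0.21).

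Of 11 genes that MYC is known to repress 7 rose, 1 fell and 3 did not pass, against 27.3% of all tested genes higher, and the median log2 fold change was 0.52. GADD45A, a growth arrest gene that is also a p53 target, had 49.9, 47.8 and 49.7 CPM in parental and 109, 108 and 113 CPM in resistant libraries, a 2.24-fold rise (edgeR adjusted p = 2.4e-09). THBS1, the thrombospondin gene, rose 2.0-fold from 25.6 ± 1.65 CPM to 51.6 ± 0.121 CPM. CLU, the clusterin gene, rose 1.89-fold, and FTH1, the ferritin heavy chain gene, rose 1.44-fold. The cyclin-dependent kinase inhibitor genes CDKN1A and CDKN2B rose by 0.27 and 0.60 on the log2 scale, and both were named after their values were seen. NDRG2, also named after its value was seen, was the member that fell. Several of these genes also answer to p53, oxidative stress or other factors, and the share of MYC in their change was not tested.

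**Figure D4:**
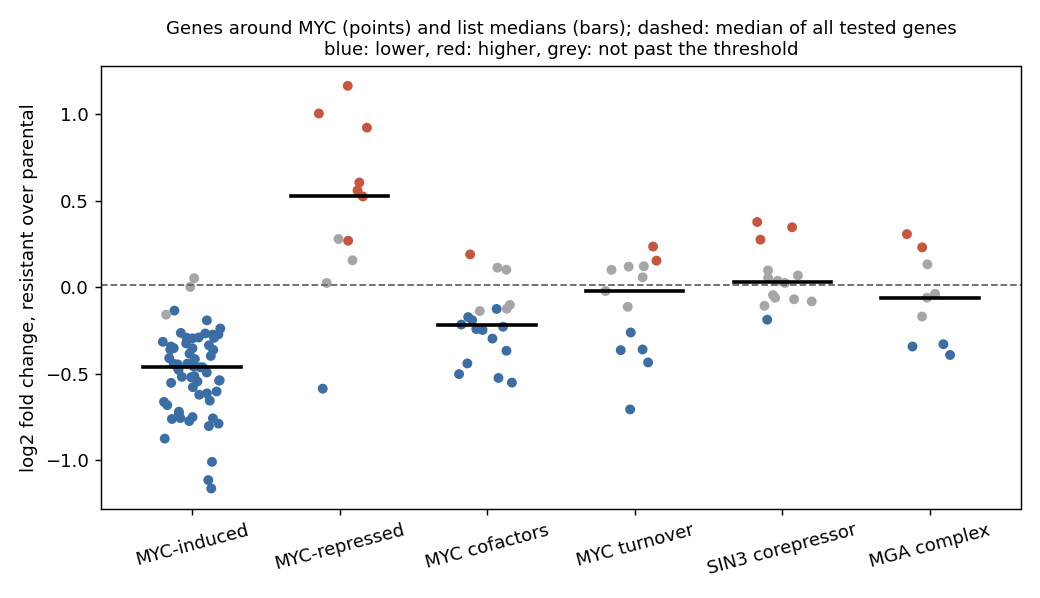
Log2 fold change (vertical axis, resistant over parental) of the tested members of 6 gene lists around MYC, with the list median as a black bar and the median of all 16605 tested genes as a dashed line. The MYC-induced genes centre on -0.46 with 59 of 62 lower, and the MYC-repressed genes centre on 0.52.

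The cofactors through which MYC acts on chromatin and on elongation were lower in 13 of 19 tested, against 26.5% of all tested genes. Of the rest 1 rose and 5 did not pass, and the median log2 fold change was -0.22. RUVBL1, a helicase subunit of the TIP60 complex, fell 1.47-fold, from 173 ± 13.4 CPM to 118 ± 2.86 CPM (SD, n = 3; edgeR adjusted p = 7.7e-06). The acetyltransferase gene KAT5 of the same complex fell 1.42-fold, PAF1 of the elongation machinery 1.44-fold and SMARCB1, a SWI/SNF subunit that binds MYC, 1.36-fold. On log2(FPKM + 1) the SMARCB1 groups overlapped and the log2 fold change was -0.17 (limma adjusted p = 0.15, within a range of 1.2e-14 to 0.29 over all its alternatives). PAF1 just missed the threshold when FPKM were tested unfiltered (limma adjusted p = 0.053). On log2(FPKM + 1) the cofactors that fell numbered 6, and 3 with no filter.

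Genes that control the turnover of MYC protein went both ways, with 5 of 13 tested lower, 2 higher and 6 not past the threshold, so that the share past it was close to the 53.8% of all tested genes. AURKA, the Aurora A kinase gene whose product shields MYC proteins from degradation, fell 1.63-fold from 117 ± 2.74 CPM to 71.6 ± 1.50 CPM. USP36, a nucleolar deubiquitinase gene, fell 1.29-fold, SET, an inhibitor of the phosphatase that destabilises MYC, 1.35-fold, and STUB1, a ubiquitin ligase gene, 1.28-fold. FBXW7, the ubiquitin ligase subunit that marks MYC for degradation, had 32.7 ± 1.95 CPM in parental and 35.5 ± 1.25 CPM in resistant libraries (edgeR adjusted p = 0.12). With library sizes alone 6 of these genes were higher. The number was 1 when parental replicate 3 was left out, and likewise when resistant replicate 1 or 3 was.

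On the side of the repressors, the SIN3 corepressor that MXD and MNT proteins recruit had 14 tested members, of which 3 rose, 1 fell and 10 did not pass, against 27.3% of all tested genes higher and 26.5% lower. RBBP4, a histone-binding subunit, rose 1.30-fold, and ARID4A and ING2 rose 1.21-fold and 1.27-fold. The ING2 call was lost without resistant replicate 3 (edgeR adjusted p = 0.064) and with DESeq2 (0.081), and the ARID4A call on FPKM (limma adjusted p = 0.55 on log2(FPKM + 1), up to 0.65 with no filter). SAP18 fell 1.14-fold, a call that was lost with library sizes alone (edgeR adjusted p = 0.10) and on FPKM, where the log2 fold change was -0.063 (limma adjusted p = 0.48, up to 0.57 with no filter). SIN3A itself had 135 ± 5.89 CPM in parental and 131 ± 6.13 CPM in resistant libraries (SD, n = 3; edgeR adjusted p = 0.48). The members that fell numbered 0 with library sizes alone and on FPKM, 2 with RLE size factors, DESeq2 or a replicate block, and 3 without parental replicate 2. Those that rose numbered 5 with library sizes alone.

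Of the partners of MGA in its Polycomb complex 3 of 9 tested fell, 2 rose and 4 did not pass, a share past the threshold close to the 53.8% of all tested genes. TFDP1, the dimer partner of E2F6, fell 1.31-fold, from 278 ± 6.19 CPM to 212 ± 3.81 CPM, and CBX3 and L3MBTL2, which bind methylated histones, fell 1.27-fold and 1.26-fold. The L3MBTL2 call was lost on FPKM (limma adjusted p = 0.088 on log2(FPKM + 1), 0.19 with no filter) and the CBX3 call on FPKM with no filter (0.10), where 1 member of the complex was lower. RYBP rose 1.17-fold and YAF2 1.24-fold, with overlapping groups, and no member rose without parental replicate 2, without resistant replicate 1 or without resistant replicate 3, and 1 rose without parental replicate 3. With DESeq2 1 rose, and on FPKM 1 or, with no filter, 0.

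Of 4 known targets of the MLX arm 2 had enough counts to be tested. ARRDC4, an arrestin-like inhibitor of glucose uptake, had 16.7, 15.6 and 17.9 CPM in parental and 27.1, 29.2 and 29.1 CPM in resistant libraries, a 1.71-fold rise (edgeR adjusted p = 1.8e-06). It rose where MLX and MLXIPL fell and MLXIP fell only 1.12-fold. A link between ARRDC4 and these factors was not tested. KLF10 had a log2 fold change of -0.09 (edgeR adjusted p = 0.087; 0.038 without parental replicate 2). TXNIP, the best known MondoA target, had 0 to 3 counts in a library, at or under the floor of detection, and PKLR had 1 count in all.

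Among genes upstream of MYC, TCF7L2, which encodes the TCF4 partner of beta-catenin, had 193, 172 and 195 CPM in parental and 94.9, 92.3 and 99.0 CPM in resistant libraries, a 1.96-fold fall (edgeR adjusted p = 6.0e-08). TCF7, which encodes a related factor, rose 1.42-fold from 29.0 ± 1.81 CPM to 41.1 ± 1.37 CPM (SD, n = 3). Of the list of 8 tested regulators and neighbouring transcripts 7 fell and 1 rose, against 26.5% of all tested genes lower, with HNRNPK, an RNA- and DNA-binding protein gene, 1.17-fold lower. On log2(FPKM + 1) 4 of them were lower, and 2 with no filter. PVT1, the long non-coding RNA gene beside MYC, went from 17.2 ± 0.826 CPM down to 12.6 ± 1.09 CPM, a 1.37-fold fall (edgeR adjusted p = 4.5e-04). On FPKM the PVT1 values scattered from 72.3 to 167 in parental and from 94.1 to 267 in resistant libraries, and the log2 fold change was 0.12 (limma adjusted p = 0.88).

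The 5 genes whose pattern over the 6 libraries was most like that of MYC were EIF3H, RPL8, SLC16A3, C8orf76 and PSPC1. Likeness was the Euclidean distance between log2 CPM centred on each gene's mean, among 11622 genes with a mean of at least 5 CPM. With 2 groups of 3 libraries this distance mainly reflects the difference between the groups. The 5 genes had log2 fold changes between -0.91 and -0.85. EIF3H, a translation initiation factor gene, was nearest at a distance of 0.0487, with a mean of 398 CPM in parental and 212 CPM in resistant libraries. RPL8, a ribosomal protein gene, had a mean of 1483 CPM in parental and 815 CPM in resistant libraries, at a distance of 0.0528. C8orf76 had 39.5 and 22.0 CPM at a distance of 0.0679. EIF3H, RPL8 and C8orf76 are known to lie on the same chromosome arm as MYC, and the share of all compared genes on that arm was not computed. Of the network members MLX was nearest to MYC at rank 106, and MXD3 was farthest at rank 10723.

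Because of these neighbours, and therefore after the values were seen, the genes around MYC were also described. No human coordinates were used. The order of genes around Myc was taken from the mouse RefSeq table of GRCm38.p6, a region whose gene order is largely shared with human. The 30 tested genes nearest on each side in that order were matched by symbol. Human genes without such a match were left out, and some may lie closer to MYC. Of these 60 genes 41 were lower, 8 higher and 11 not past the threshold, against 26.5% of all tested genes lower. Their median log2 fold change was -0.52, with 23 of 30 lower on the PVT1 side and 18 of 30 on the other side. Since the region was chosen on these data, no test was made.

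In this region TRIB1, which encodes a pseudokinase and is the second gene from MYC in that order, fell from 267 to 145 CPM with a log2 fold change of -0.88 ± 0.04 (SE). AGO2, an RNA interference gene, fell from 310 to 165 CPM with one of -0.91, and ATAD2, a chromatin ATPase gene that is a cofactor of MYC, fell from 417 to 266 CPM with one of -0.65. The tested gene next to Myc in the mouse order on the side away from PVT1, FAM84B, was higher, at 43.2 against 34.9 CPM (log2 fold change 0.31). It need not be the gene next to MYC in human. Farther out MAL2, SNTB1, CCN3 and HAS2 were higher by 1.76 to 3.05 on the log2 scale. Of these HAS2 and CCN3 had low parental means of 0.26 and 1.42 CPM. The largest falls of the region were those of SQLE, PTP4A3 and LYNX1, with log2 fold changes of -3.38, -2.70 and -2.16. SQLE went from 148 to 14.3 CPM. These genes were named after their values were seen, and DNA copy number was not measured.

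**Figure D5:**
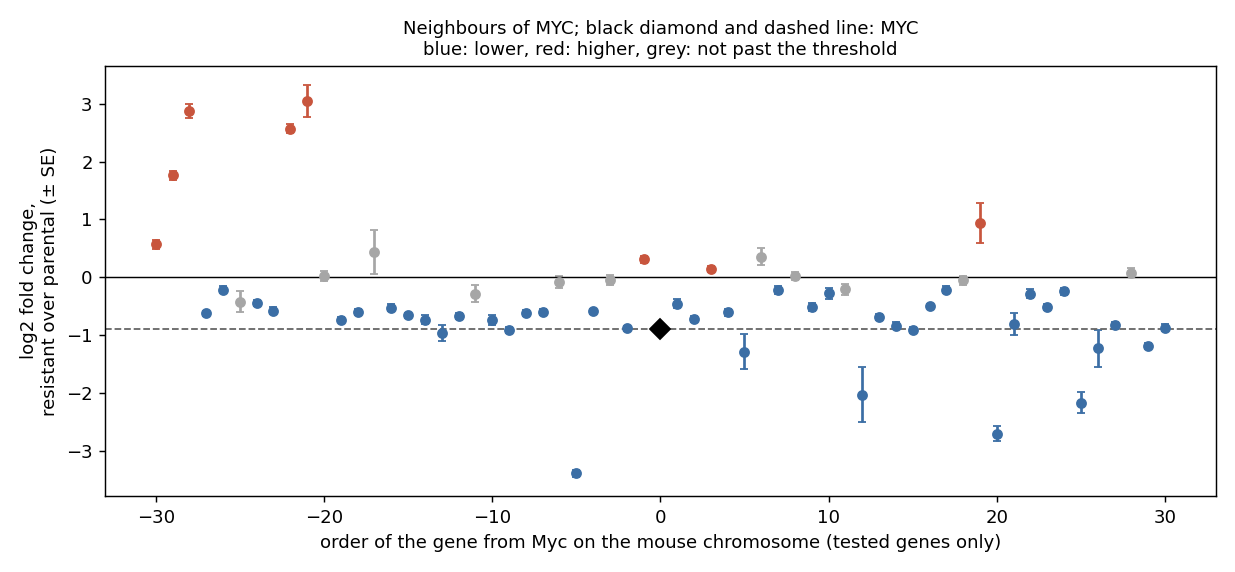
Log2 fold change with SE (vertical axis, resistant over parental) of the 30 tested genes nearest on each side of Myc in the mouse gene order (horizontal axis). Human genes without a match by symbol are not shown. MYC is the black diamond at -0.90, 41 of the 60 neighbours are lower (blue) and 8 are higher (red).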

How the data were processed

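Per the labels' protocols, total RNA was made into sequencing libraries using a SMARTER mRNA-Seq kit. The authors deposited read counts per gene as whole numbers without normalization, and a second table taken as FPKM, a unit inferred from its values because the deposited header names none. The aligner, counter, annotation release and strandedness were not given in the sources used here, so reads of overlapping antisense genes cannot be told apart. The submitters' processing notes name GRCm38 and mm10, but 30616 of 31456 rows carry human identifiers, and no coordinates or sequences are printed. The other 840 rows are unnamed gene models that took 0.857% to 0.955% of counts and stayed in the fit.

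Counts were fitted with edgeR 4.0.16 in R 4.3.3 (TMM, filterByExpr, robust glmQLFit and glmQLFTest, two-sided, Benjamini-Hochberg over all 16605 tested genes, threshold 0.05). The SE was taken as the absolute log2 fold change over the root of the F statistic, and approximate 95% intervals as 1.96 SE on either side. Floors cover counting error only. FPKM were tested with limma 3.58.1 on log2(FPKM + 1), which understates changes of low genes. DESeq2 1.42.0, other scalings and filters, a replicate block and leaving out each library were the alternatives. On simulated data with 16605 genes, edgeR recovered 13, 42, 50 and 50 of 50 genes changed 1.25-fold, 1.5-fold, 2-fold and 4-fold, with 7 false calls. The simulation gave every gene the same dispersion and changed far fewer genes than were called in these data. It therefore checks that the code runs properly and does not measure recovery or false calls in this fit.

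Members and lists were chosen with earlier results of these data known. Named genes are the members, MYCL, MLXIPL, up to 4 genes per list with the smallest adjusted p (4 in each direction for MYC-induced genes) and the 5 genes most like MYC. NCL, HK2, LDHA, RABEPK, FBXW7, SIN3A, YAF2, TXNIP, PKLR and CD68 fall outside this rule. Of the listed genes 1 is not reported here.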

Additional observations from a re-analysis of the deposited data

How the results depend on the processing

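MYC, MXD3, MXD4, MNT and MLX kept their direction and passed the threshold under all 15 alternatives. On FPKM with no filter 5290 genes passed, against 8933 in the count fit. Members past the threshold numbered 5 (3 of them higher) on log2(FPKM + 0.1) and again on log2(FPKM + 1) with no filter. With library sizes alone 1 MYC-induced gene was called higher. Reversals were limited to MAX on FPKM (-0.037 on log2(FPKM + 1), with or without a filter, and -0.037 on log2(FPKM + 0.1)), PVT1 on FPKM (0.12 in each of the 3 FPKM settings) and KLF10 with library sizes alone (0.0030), and the cause was not tested. The difference in log2 ratio on FPKM was -0.75 for MYC to MAX, -1.18 to MXD1, -1.12 to MXD3, -0.90 to MXI1 and -0.88 to MGA. With a replicate block 9973 genes and all 10 members passed, MGA with an edgeR adjusted p of 0.043. Deviations of same-numbered libraries correlated at 0.088, 0.21 and 0.049, and the value of 0.21, for replicate 2, was the highest of all pairs. Parental replicate 3 instead correlated best with resistant replicate 1 (0.10). The labels do not say whether same-numbered libraries were handled together, and this was not tested. Leaving out 1 library in turn gave 7 to 10 members past the threshold and 58 to 59 MYC-induced genes lower. Over all alternatives 29 to 44 of the MYC neighbours were lower. Each member had at least 187 counts in a library, while TXNIP and PKLR stood at or under the floor of detection.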
